A study of Mus musculus with 24 samples.

Results

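The comparison described here set the striatum of R6/2 mice against that of wild-type littermates at 8 weeks of age. R6/2 mice carry a transgene made of the human HTT promoter and first exon with a lengthened CAG repeat, and they serve as a fast-progressing Huntington's disease model. The series held 24 libraries of polyadenylated RNA from cortex or striatum at 8 or 12 weeks, and its title names histone H3K4 methylation as a target in this disease. Both genotypes shared a C57Bl/6 and CBA background, and neither carried any other labelled treatment. The comparison used 6 of the 24 libraries, 3 per genotype, chosen by their labelled genotype, tissue and age. Of 18669 genes counted, the 11142 with a mean of at least 0.5 RPKM (reads per gene, divided by gene length and by the library total, as deposited) over the 6 libraries were tested. The labels do not say whether a library came from 1 animal or from a pool, or which animals were separate, so p-values measure the spread between libraries.

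Most neurons of the striatum are inhibitory projection neurons that receive dopamine. Direct pathway neurons carry the dopamine receptor Drd1 and the peptides substance P (Tac1) and dynorphin (Pdyn), and indirect pathway neurons carry Drd2, the adenosine receptor Adora2a and the peptide enkephalin (Penk). Loss of transcripts from these neurons is a known feature of Huntington's disease models. Immediate early genes, such as the EGR transcription factors, Fos and Arc, are switched on within minutes of synaptic or growth factor signalling.

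Counts in genes ran from 7089261 to 13007306 per library. They made up 25.7 to 28.3% of the library total implied by the deposited RPKM in 5 libraries and 42.9% in wild type replicate 1, so levels are given here as RPKM computed from counts in genes with TMM scaling, called scaled RPKM. Wild type replicate 1 also stood apart by GC content: its deviation from the mean of the 6 libraries correlated with gene GC content at -0.51 across 11109 genes, and that of R6/2 replicate 2 at 0.55. Replicates all differed by more than their counts allow by chance: chi-square divided by its degrees of freedom was 8.00 for wild type replicates 2 and 3 and 36.9 to 78.1 for the other pairs.

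Genotype labels were checked first. The R6/2 transgene lies within Gm12695, and this gene had 24, 29 and 52 counts in R6/2 replicates 1 to 3 against 1, 1 and 3 in wild type. Its scaled RPKM of 2.41, 2.09 and 3.11 lay above the 0.106, 0.111 and 0.337 of wild type in every library, although its mean fell below the minimum for testing. The endogenous gene Htt, which does not report on the transgene, was measured at 12.6, 16.8 and 13.8 in R6/2 and 6.42, 14.9 and 12.6 in wild type. Its log2 fold change of 0.35 (SE 0.31) did not pass the test (edgeR adjusted p = 0.766).

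Tissue labels were checked against markers. All 8 measured markers of striatal projection neurons were detected in every library, led by Ppp1r1b (DARPP-32, the protein phosphatase inhibitor of dopamine signalling). Ppp1r1b was at 339, 1253 and 992 in R6/2 and 1100, 1226 and 1323 in wild type. R6/2 replicate 1 was therefore low for a gene that the other R6/2 libraries held at or near wild-type level. The summed level of the 8 markers was 850.2 in that library, 2121 and 2338 in the other R6/2 libraries and 2497 to 3942 in wild type.

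RNA of neighbouring tissue differed between libraries too. The summed level of 5 cortical projection neuron markers was 111.8 in R6/2 replicate 1 and 82.2 in wild type replicate 1, against 13.7 and 26.1 in the other R6/2 libraries and 4.57 and 4.81 in the other wild-type libraries. Slc17a7, the vesicular glutamate transporter of cortical neurons, was at 63.9, 6.24 and 12.3 in R6/2 and 22.2, 0.713 and 1.72 in wild type. The 4 markers of thalamus and hypothalamus summed to 101.1, 21.0 and 10.8 in R6/2 and to 78.9, 141.7 and 84.1 in wild type, so R6/2 replicates 2 and 3 held the least of them. Calb2 (calretinin), which striatal interneurons also express, was at 56.0, 1.81 and 1.65 against 60.3, 72.1 and 37.3. Ttr, the main secreted protein of the choroid plexus, spanned 46.8 to 5282 and was highest in wild type replicate 3. No marker of cortex, thalamus, hypothalamus or choroid plexus was at 0 in all libraries, and only Sp9 of the indirect pathway markers was. The part of this neighbouring tissue in the differences below was not tested. Counts of genes are also given without R6/2 replicate 1 and wild type replicate 1. That setting does not remove the differences in neighbouring tissue. The libraries it keeps held thalamus and hypothalamus markers at 21.0 and 10.8 in R6/2 against 141.7 and 84.1 in wild type. Their cortical markers were at 13.7 and 26.1 against 4.81 and 4.57. It also keeps R6/2 replicate 2, whose deviation correlated with GC content at 0.55.

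**Figure D1:**
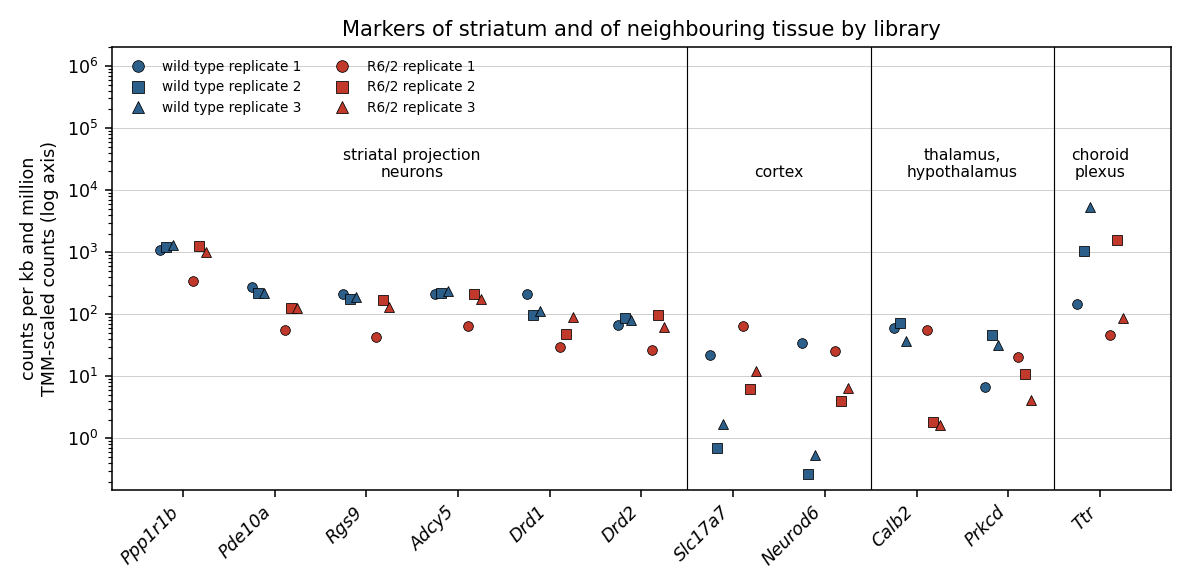
Levels of 11 marker genes in each of the 6 striatal libraries at 8 weeks, in scaled RPKM on a log axis, grouped by the cells they mark; each point is 1 library. R6/2 replicate 1 (red circles) is lowest for Ppp1r1b, Pde10a, Rgs9 and Adcy5 and highest for Slc17a7, and Ttr ranges from 46.8 to 5282.

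The test of all genes passed 1 gene. Egr2, also called Krox20, a zinc finger transcription factor of the EGR family, fell in R6/2 striatum, and it was the only gene called of 11142 (0.00898%; 1 lower and 0 higher; edgeR quasi-likelihood test, Benjamini-Hochberg adjusted p under 0.05). At an unadjusted p under 0.05, 376 genes were lower (3.37%) and 162 were higher (1.45%). Every R6/2 library lay below every wild-type library for 637 genes (5.72%) and above for 690 (6.19%). DESeq2 called 33 genes on the same counts, 30 lower (0.269%) and 3 higher (0.0269%), and all 33 had groups that did not overlap. Limma's voom with sample quality weights called 201 lower (1.8%) and 34 higher (0.305%), and 116 of these 235 had groups that did not overlap. Calls and gaps between groups were read from the same libraries, so neither is support for the other. Without R6/2 replicate 1 and wild type replicate 1, edgeR called 79 genes, 77 lower (0.693%) and 2 higher (0.018%), and Egr2 was among them (adjusted p = 0.00131). The lists of genes were read against the shares of all genes in the same setting.

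Egr2 was measured at 1.38, 1.27 and 1.23 scaled RPKM in R6/2 and at 9.75, 18.7 and 17.6 in wild type. The R6/2 libraries lay close together, and the lowest wild-type library was well above them. The counts behind these levels were 32, 41 and 48 in R6/2 and 214, 394 and 365 in wild type. The log2 fold change was -3.57 (SE 0.33, n = 3 per group, edgeR adjusted p = 0.0316), an 11.9-fold lower level. The fold was similar when any 1 library was left out (-3.80 to -3.40), but the call was not: the adjusted p was 0.00238 without wild type replicate 1, 0.126 without wild type replicate 2, 0.184 without wild type replicate 3, and 0.125, 0.541 and 0.491 without R6/2 replicates 1, 2 and 3. It passed under all 11 other settings tried.

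The stretch just upstream of an annotated Egr2 start site is shown because Egr2 is the gene the test passed. It covers chr10:67537739-67537868 (GRCm38.p6, plus strand; RefSeq), the 130 bases before the start at 67537869, and overlaps 0 exons of GENCODE vM21. Capitals mark a CArG box, the site of serum response factor, and 2 copies of TGACG, of which the second lies on the minus strand, the core of the cAMP response element.
Egr2: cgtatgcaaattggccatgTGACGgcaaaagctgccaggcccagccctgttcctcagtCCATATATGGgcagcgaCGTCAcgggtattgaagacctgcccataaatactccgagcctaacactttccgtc
The CArG box lies 72 to 63 bases before the start and the TGACG copies at 111 to 107 and 55 to 51 bases before it, so none overlap. In windows from 250 bases before to 50 after each start site, searched on both strands, a CArG box was found in 1.81% of 27025 genes and TGACG in 23.0%. Among tested genes with a window these shares were 1.56% and 36.4% of 8905. Of the 637 genes with every R6/2 library below wild type, 488 had a window, and 2.25% and 31.8% of these held the motifs. Egr2 has other annotated start sites, and the motifs depend on the site taken. Its window at chr10:67535249-67535548 held neither motif, and that at chr10:67537316-67537615 held a different CArG box and no TGACG.

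The other immediate early genes were mostly lower without passing the edgeR test. With Egr2 included, DESeq2 called 2 genes of the list lower (all genes 0.269%), and voom with quality weights called 8 lower (all genes 1.8%). Of 24 listed genes present in the deposited counts, 21 were tested, and by edgeR 1 fell (Egr2) and 0 rose. Of the 21, 19 had a log2 fold change below 0 (all genes: 50.6%), and the median was -0.56 (all genes: -0.01). Every R6/2 library was below every wild-type library for 5 of the 21 (23.8%, against 5.72% of all genes). Without R6/2 replicate 1 and wild type replicate 1 this held for 12 of 18 (66.7%, against 21.2% of all genes), and 2 fell. The 3 members not tested (Fosl2, Junb and Ier2) were below the RPKM minimum. Junb had 0 counts in every library, which does not tell a silent gene from one that was not counted.

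Egr1, a close relative of Egr2 and a common marker of neuronal activity, stood at 79.2, 95.9 and 99.7 in R6/2 and at 174, 189 and 174 in wild type. The groups did not overlap, and the log2 fold change was -0.97 (SE 0.20, edgeR adjusted p = 0.762; DESeq2 adjusted p = 0.000897). The genes named next were chosen after their values were seen. Fos was at 22.4, 7.20 and 6.13 in R6/2 and 26.7, 35.9 and 27.2 in wild type, with R6/2 replicate 1 near the wild-type range (log2 fold change -1.34, SE 0.47, adjusted p = 0.762). Leaving out replicate 1 of both genotypes gave Fos a value of -2.25 (edgeR adjusted p = 0.00704). Arc, which encodes a synaptic protein that is translated at dendrites, was at 21.5, 50.3 and 22.7 against 44.5, 98.8 and 72.8, and the groups overlapped. Nr4a1, an orphan nuclear receptor, showed the same layout at 18.6, 37.8 and 22.1 against 20.6, 75.0 and 70.2. Egr3 did not share it: its levels of 8.71, 23.1 and 20.04 and of 6.27, 22.8 and 22.2 gave a log2 fold change of 0.02 (SE 0.52), whose sign turned with the library left out (-0.36 to 0.33). Bdnf, an activity-regulated growth factor that the striatum receives largely from cortex, ranged from 0.296 to 7.32 in R6/2 and from 0.922 to 9.38 in wild type, and its log2 fold change of -0.59 (SE 1.07) became 0.60 without wild type replicate 1.

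The 12 genes of smallest p were 11 lower genes and 1 higher gene, and all 12 were called by DESeq2. Egr2 apart, their edgeR adjusted p ran from 0.185 to 0.762. Abi3bp, which encodes an extracellular matrix protein, was at 0.496, 0.800 and 0.775 in R6/2 and 11.3, 5.20 and 6.79 in wild type (a log2 difference of -3.46, SE 0.43, edgeR adjusted p = 0.185). It was also the gene nearest to the threshold. Ddit4l, an inhibitor of mTOR signalling, was at 2.53, 1.27 and 3.78 against 21.3, 7.37 and 14.5 (-2.51, SE 0.50). Neto2, an auxiliary subunit of kainate receptors, was at 25.5, 20.1 and 29.4 against 107, 58.4 and 62.9 (-1.61, SE 0.29). Wild type replicate 1 was the highest library for each of these 3 genes.

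Cntnap3, a neuronal adhesion molecule, was at 2.18, 2.10 and 3.11 in R6/2 and 5.96, 7.14 and 10.51 in wild type (-1.67, SE 0.31). Wnt7a, a secreted signalling ligand, was at 4.35, 5.63 and 3.92 against 10.1, 13.1 and 11.7 (-1.32, SE 0.25). Here wild type replicate 1 was not the highest library, and the groups were still apart. Id4, an inhibitor of basic helix-loop-helix factors, was at 112, 103 and 120 against 312, 196 and 260 (-1.20, SE 0.23). Traip, a ubiquitin ligase of DNA replication, was at 5.25, 5.96 and 4.64 against 15.6, 11.8 and 13.5 (-1.37, SE 0.25), and Ppp4r4, a phosphatase regulatory subunit, at 8.10, 10.4 and 10.4 against 28.4, 21.4 and 20.7 (-1.29, SE 0.23). Krt12, a keratin gene, was the higher one, at 17.97, 21.97 and 12.4 against 5.13, 4.48 and 1.87 (2.18, SE 0.41). Its R6/2 libraries were all above the highest wild-type library.

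**Figure D2:**
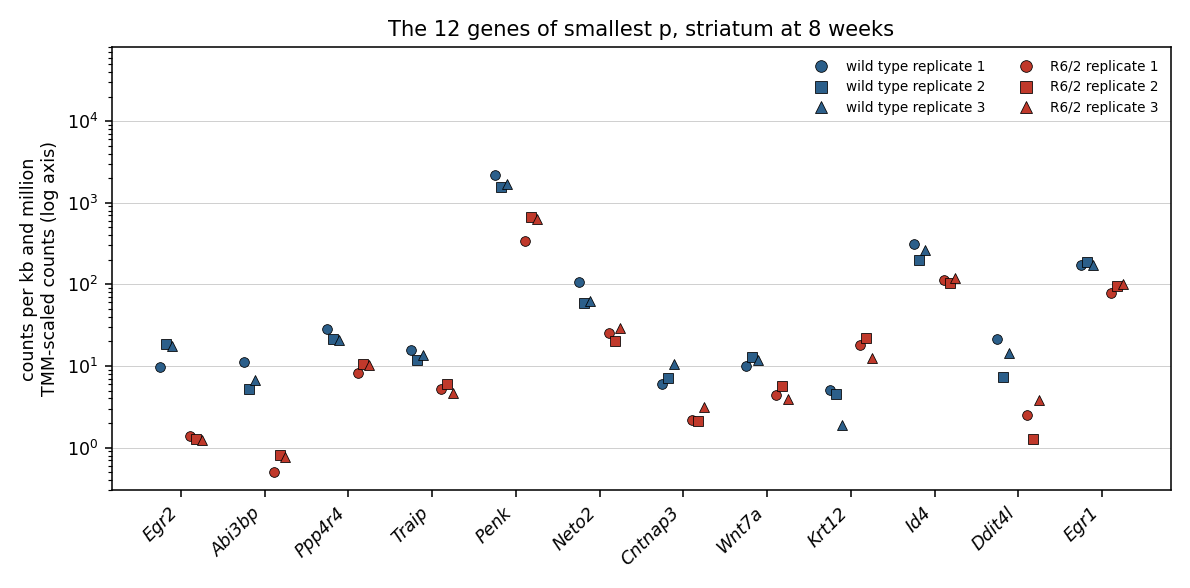
Levels of the 12 genes of smallest p in the 6 libraries, in scaled RPKM on a log axis; each point is 1 library. The genes were chosen by p in these same libraries, which favours groups that lie apart. The genotypes do not overlap for any of the 12, the widest gap is that of Egr2 and Abi3bp, and Krt12 is the only gene higher in R6/2.

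Genes shared by both classes of striatal projection neuron lay lower as a group. Of 32 tested, 0 fell and 0 rose by edgeR, 31 had a log2 fold change below 0 (96.9%, all genes 50.6%) and the median was -0.65 (all genes -0.01). For 13 of the 32 (40.6%, against 5.72% of all genes) every R6/2 library was below every wild-type library, and for 0 every one was above. DESeq2 called 3 of the 32 lower (all genes 0.269%), and voom with quality weights called 4 lower (all genes 1.8%). R6/2 replicate 1 carried much of the size: without it the median was -0.34 and 24 of 32 were below 0. In that setting 13 (40.6%, all genes 14.1%) were lower in both remaining R6/2 libraries than in every wild-type library, and 3 (9.38%, all genes 16.0%) were higher. Without replicate 1 of both genotypes the median was -0.22, 15 of 32 (46.9%, all genes 21.2%) were lower in both remaining R6/2 libraries than in both wild-type libraries, 3 (9.38%, all genes 22.3%) were higher, and 1 fell by edgeR. In bulk RNA, fewer projection neurons in a dissected piece and less RNA per neuron cannot be told apart.

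Scn4b, a sodium channel beta subunit enriched in striatum, had the largest fold of this list. It was at 47.9, 176.3 and 195 in R6/2 and 532, 461 and 514 in wild type, so each R6/2 library was under the lowest wild-type value even without R6/2 replicate 1. The log2 fold change was -1.85 (SE 0.47, edgeR adjusted p = 0.762), and -1.40 (adjusted p = 0.0143) without replicate 1 of both genotypes. Arpp19, a cAMP-regulated phosphatase inhibitor, was at 462, 453 and 651 against 2815, 1169 and 1167 (-1.72, SE 0.38). Its counts were 323, 441 and 763 against 1859, 740 and 729. Ppp1r1b had 3886 counts at its level of 339 in R6/2 replicate 1. The Arpp19 level thus rests on a short deposited gene length and should not be set beside levels of other genes. Ryr1, a calcium release channel, was at 1.31, 2.71 and 0.973 against 4.61, 5.86 and 4.29 (-1.56, SE 0.38). Pde10a, the main phosphodiesterase of these neurons, was at 54.9, 126 and 128 against 278, 219 and 222 (-1.22, SE 0.34). R6/2 replicate 1 was the lowest library for Scn4b and Pde10a, and not for Arpp19 or Ryr1.

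For other defining genes the size of the difference depended on single libraries. Rgs9, a regulator of G protein signalling, was at 42.6, 169 and 131 in R6/2 and 209, 174 and 189 in wild type, and its log2 fold change of -0.74 (SE 0.43) became -0.34 without R6/2 replicate 1. Adcy5, the striatal adenylyl cyclase, was at 64.9, 216 and 174 against 208, 218 and 236 (-0.54, SE 0.39; -0.18 without R6/2 replicate 1). Ppp1r1b gave -0.50 (SE 0.42, edgeR adjusted p = 0.762), and -0.19 without replicate 1 of both genotypes.

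The 2 output pathways were described separately, and the difference between them was not tested. Of 10 direct pathway genes, 5 were below 0 and 2 had every R6/2 library lower (all genes 5.72%), with a median of -0.14. Of 6 tested indirect pathway genes, 5 were below 0 and 2 (33.3%) had every R6/2 library lower, with a median of -0.57. No member of either list fell or rose by edgeR. DESeq2 and voom with quality weights each called 1 indirect pathway gene lower and 0 direct pathway genes. Without replicate 1 of both genotypes, 3 direct pathway genes (30.0%, all genes 21.2%) were lower and 5 (50.0%, all genes 22.3%) higher in both R6/2 libraries. Of 6 indirect pathway genes, 4 (66.7%) were then lower, 0 were higher and 1 fell by edgeR.

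Penk gave the clearest value among the pathway genes, at 335, 668 and 624 in R6/2 and 2166, 1549 and 1672 in wild type. The log2 fold change was -1.73 (SE 0.31, edgeR adjusted p = 0.739), and -1.33 (adjusted p = 0.0150) without replicate 1 of both genotypes. Adora2a was at 35.3, 93.6 and 77.8 against 112, 122 and 135 (-0.84, SE 0.34), with no overlap. Drd2 in the same neurons was at 26.2, 98.5 and 62.1 against 68.4, 87.0 and 82.1, and it turned from -0.35 (SE 0.41) to 0.02 without R6/2 replicate 1. Of the direct pathway genes, Drd1 was at 29.8, 47.3 and 89.0 against 212, 99.1 and 113 (-1.35, SE 0.44), and Chrm4, a muscarinic receptor, at 16.0, 31.1 and 29.2 against 36.7, 37.5 and 36.2 (-0.53, SE 0.27). Tac1 at 201, 344 and 516 against 769, 239 and 305, and Pdyn at 20.3, 92.7 and 68.6 against 52.7, 53.5 and 64.6, overlapped and changed sign between settings. Penk, Adora2a, Drd1 and Chrm4 thus had groups apart, and Drd2, Tac1 and Pdyn did not.

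**Figure D3:**
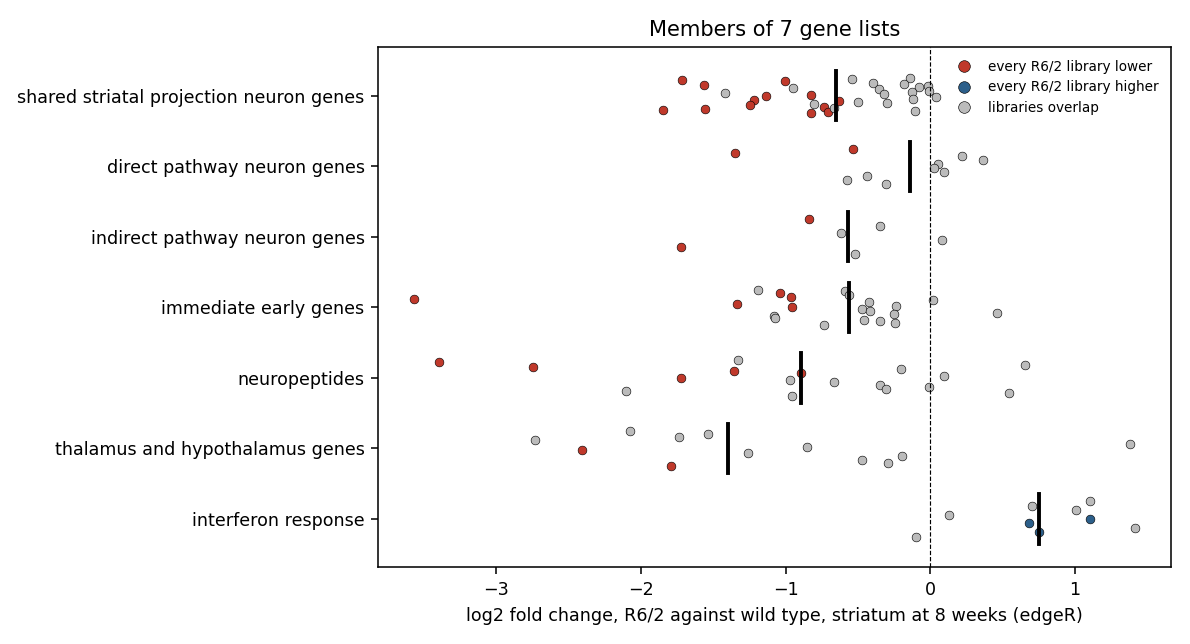
Log2 fold change of R6/2 against wild type (edgeR, x axis) for each tested member of 7 gene lists; each point is 1 gene, colour shows whether every R6/2 library lay below or above every wild-type library, black bars are list medians and the dashed line is the median of all genes. Egr2 is the point at -3.57 among immediate early genes, medians are negative for 6 lists, and the interferon genes lie above 0 in 8 of 9 cases.

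Signalling lists of the same neurons had smaller medians, and edgeR called no member. DESeq2 called 0 dopamine and cAMP, 1 calcium and 0 potassium channel genes, and voom with quality weights called 2, 3 and 1, all lower. Of 29 dopamine and cAMP signalling genes, 22 were below 0 (all genes 50.6%), with a median of -0.35 (all genes -0.01). Every R6/2 library was lower for 7 (24.1%, all genes 5.72%). Rgs2 was at 7.92, 12.6 and 15.6 in R6/2 and 23.2, 27.7 and 28.4 in wild type (-1.13, SE 0.27), and Rgs4 at 182, 210 and 274 against 869, 320 and 396 (-1.25, SE 0.39). Both are regulators that shorten G protein signals. Of 28 calcium signalling genes, 22 were below 0 and 7 (25.0%, all genes 5.72%) had every R6/2 library lower. Among these 7 were Pcp4, a calmodulin-binding peptide, at 985.4, 1049 and 1699 against 4255, 1927 and 2232 (-1.17, SE 0.36), and Cacna1e, a calcium channel subunit (-0.60, SE 0.20). Of 22 potassium channel genes, 16 were below 0 and 6 (27.3%, all genes 5.72%) had every R6/2 library lower. They included Kcnh4 at 1.53, 4.93 and 4.87 against 8.60, 8.19 and 10.0 (-1.23, SE 0.42), Kcnab1 (-1.14, SE 0.38) and Kcnip3 (-0.62, SE 0.21). Without replicate 1 of both genotypes the medians of these lists moved from -0.35 to -0.11, from -0.27 to -0.12 and from -0.34 to -0.19, and 1 potassium channel gene fell by edgeR. In that order, 31.0%, 39.3% and 40.9% of members were then lower in both R6/2 libraries (all genes 21.2%), and 17.2%, 7.14% and 13.6% were higher in both (all genes 22.3%).

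For receptors and transmitter enzymes, the shares of genes with every R6/2 library lower were above that of all genes, on 2 or 3 genes per list. Every R6/2 library was lower for 2 of 19 glutamate receptor genes (10.5%), 3 of 18 GABA genes (16.7%) and 2 of 9 cannabinoid and opioid genes (22.2%), against 5.72% of all genes, and higher for 1 of the last 9 (11.1%, all genes 6.19%). Cnr1, the cannabinoid receptor, was at 50.1, 32.4 and 43.6 in R6/2 and 232, 80.1 and 60.7 in wild type (-1.57, SE 0.49). Faah, which degrades the cannabinoid anandamide, was higher in each R6/2 library, at 6.12, 5.24 and 4.64 against 2.41, 3.27 and 3.02 (0.88, SE 0.27). The kainate receptor subunit Grik2 (-1.07, SE 0.36), the metabotropic receptor Grm3 (-0.82, SE 0.28) and the GABA-synthesizing enzyme Gad2 (-0.75, SE 0.24) were lower in each R6/2 library. The edgeR adjusted p was 0.762 for all 5 genes. Without replicate 1 of both genotypes, 8 of 20 glutamate receptor genes (40.0%) were lower in both R6/2 libraries (all genes 21.2%). So were 9 of 18 GABA genes (50.0%) and 4 of 9 cannabinoid and opioid genes (44.4%). Higher in both were 2, 1 and 1 genes in that order (all genes 22.3%), and 1 GABA gene fell by edgeR.

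Most neuropeptide, cholinergic and diencephalic genes had a log2 fold change below 0. The summed markers of thalamus and hypothalamus given above overlapped between genotypes. Of 17 neuropeptide genes, 14 were below 0 (all genes 50.6%) and the median was -0.89 (all genes -0.01). Every R6/2 library was lower for 5 (29.4%, all genes 5.72%). DESeq2 called 3 of them lower (all genes 0.269%), and voom with quality weights called 5 lower (all genes 1.8%). Nts (neurotensin) was at 26.2, 13.5 and 21.1 against 40.3, 58.2 and 57.2 (-1.36, SE 0.30), and Cartpt, the precursor of CART peptides, at 5.87, 0.921 and 0.983 against 7.96, 32.6 and 37.8 (-3.40, SE 0.85). R6/2 replicate 1 and wild type replicate 1 were the nearest pair across genotypes for both genes. Of 12 tested genes listed for thalamus and hypothalamus, 11 were below 0 and the median was -1.40. Every R6/2 library was lower for 2 (16.7%, all genes 5.72%). DESeq2 called 1 of the 12 lower and voom with quality weights called 8 lower. Peg10, an imprinted gene, was at 16.3, 4.58 and 5.52 against 24.1, 63.7 and 52.1 (-2.41, SE 0.55), and Zic1, a zinc finger factor, at 30.3, 10.6 and 3.27 against 56.5, 54.9 and 41.1 (-1.79, SE 0.65).

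With replicate 1 of both genotypes left out, 4 of 16 neuropeptide genes and 7 of 12 thalamus and hypothalamus genes fell by edgeR, against 0.693% of all genes, and the medians were -1.20 and -2.87. Oxt (oxytocin) and Gal (galanin), peptides of hypothalamic neurons, were chosen after their values were seen. Oxt was at 1.37, 1.23 and 0.409 in R6/2 and 0, 129 and 32.2 in wild type, and Gal at 0.774, 0 and 0.307 against 0, 21.3 and 13.3. Both genes were thus high in wild type replicates 2 and 3 alone. Of 13 interneuron and cholinergic genes, 12 were below 0 and 2 (15.4%, all genes 5.72%) had every R6/2 library lower. These were Slc5a7, the choline transporter of cholinergic neurons, at 5.23, 5.33 and 8.14 against 35.5, 12.7 and 13.3 (-1.71, SE 0.43), and Lhx8, a homeobox factor of the same neurons, at 1.73, 3.57 and 3.73 against 7.49, 9.73 and 6.49 (-1.38, SE 0.38). Chat, the enzyme that makes acetylcholine, overlapped at 2.79, 9.20 and 6.68 against 10.0, 8.92 and 6.30. Both genes with groups apart mark cholinergic neurons. The 6 fixed markers of other interneurons summed to 352.8, 384.1 and 349.3 in R6/2 and to 402.6, 363.6 and 279.4 in wild type, and the groups overlapped.

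No member of the glial lists was called by edgeR or DESeq2, and voom with quality weights called 1 listed astrocyte gene lower and 1 higher. Of 15 astrocyte genes, 11 were below 0 (all genes 50.6%) and 4 (26.7%, all genes 5.72%) had every R6/2 library lower, with a median of -0.19. The transcription factor Sox9 was at 16.6, 13.5 and 15.2 against 36.0, 25.6 and 24.6 (-0.93, SE 0.22), the gap junction gene Gja1 at 118, 85.1 and 123 against 220, 180 and 164 (-0.79, SE 0.23), and the glutamate transporter Slc1a3 at 201, 111 and 175.6 against 476, 238 and 242 (-0.97, SE 0.35). Gfap, the filament of reactive astrocytes, overlapped at 30.0, 27.1 and 36.2 against 21.5, 37.1 and 24.1 (0.17, SE 0.27). Of 7 reactive astrocyte genes, 6 were above 0 and 1 had every R6/2 library higher (14.3%, all genes 6.19%), with a median of 0.17. Of 6 oligodendrocyte precursor genes, 5 were above 0 and 2 (33.3%) had every R6/2 library higher, with a median of 0.26. Among 14 microglia genes, 7 were below and 7 above 0, and 0 had groups apart. The 14 myelin and oligodendrocyte genes split 8 and 6, and 0 had groups apart. Correction for GC content and gene length moved the median of microglia genes from -0.05 to -0.37 and that of astrocyte genes to -0.43. The corrected medians were 0.05 for reactive astrocytes, 0.15 for oligodendrocyte precursors and -0.26 for myelin genes (all genes -0.10). Without replicate 1 of both genotypes, 7 of 15 astrocyte genes (46.7%) were lower in both R6/2 libraries (all genes 21.2%), and 7 of 14 microglia genes (50.0%) and 6 of 14 myelin genes (42.9%) were higher in both (all genes 22.3%).

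Interferon response genes were the list with the highest median. Of 9 tested, 8 were above 0 (all genes: 49.4%) and 3 (33.3%, against 6.19% of all genes) had every R6/2 library higher, with a median of 0.75, and 0 rose by edgeR. At an unadjusted p under 0.05, edgeR placed 162 of all genes higher, DESeq2 called 0 of these 9, and voom with quality weights called 2 higher. Irf9, a transcription factor of the interferon response, was at 12.6, 8.98 and 9.55 against 6.34, 6.26 and 6.78 (0.68, SE 0.26), and the antiviral gene Ifit3 at 8.41, 14.4 and 6.28 against 4.99, 4.78 and 3.76 (1.10, SE 0.36). With replicate 1 of both genotypes left out, 5 of 8 (62.5%, all genes 22.3%) were higher in both R6/2 libraries. The 12-week libraries gave the list a median of 1.62, with 4 members that rose.

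Metabolic and chromatin lists had medians nearer to 0. EdgeR and DESeq2 called no member, and voom with quality weights called 1 cholesterol synthesis gene and 1 clock gene lower. Of 18 cholesterol synthesis genes, 14 were below 0 (all genes 50.6%) and 5 (27.8%, all genes 5.72%) had every R6/2 library lower, with a median of -0.19. They included the sterol oxidase Msmo1 at 48.2, 40.2 and 53.1 against 119, 75.5 and 71.4 (-0.91, SE 0.25) and the sterol sensor Insig1 (-0.98, SE 0.32). Of 18 clock genes, 5 (27.8%, all genes 5.72%) had every R6/2 library lower, among them Npas2 (-0.74, SE 0.23) and Hlf (-0.82, SE 0.33). The series' title concerns H3K4 methylation. Of 11 genes of the methyltransferase complexes, 9 were above 0, with a median of 0.24. That median was 0.05 after correction for GC content and gene length (all genes -0.10). For 2 of the 11 (18.2%, all genes 6.19%) every R6/2 library was higher (Rbbp5 at 0.34, SE 0.19, and Dpy30 at 0.60, SE 0.32). Of 8 H3K4 demethylase genes, 6 were above 0 and 0 had groups apart, with a median of 0.28 (0.22 after the same correction). Kdm5c, a demethylase of trimethylated H3K4, was at 19.4, 30.2 and 22.4 in R6/2 and 9.91, 18.8 and 19.99 in wild type, and its 0.56 (SE 0.31) did not pass (edgeR adjusted p = 0.762). The synaptic vesicle genes Syn1 (0.70, SE 0.26) and Syp (0.63, SE 0.24) were higher in each R6/2 library, as were 6.19% of all genes. Synaptic vesicle genes were not counted as a list, so these 2 do not stand for the others. Without replicate 1 of both genotypes, 11 of 18 cholesterol genes (61.1%) and 6 of 18 clock genes (33.3%) were lower in both R6/2 libraries (all genes 21.2%), and 1 and 3 of them were higher. In the same setting 6 of 11 methyltransferase genes (54.5%) and 4 of 8 demethylase genes (50.0%) were higher in both (all genes 22.3%). Over the 43 lists with all 6 libraries, Egr2 was the only member that edgeR called.

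To place these values in time, genes were followed from the 12-week striatal libraries, none of which entered the 8-week comparison. At 12 weeks 300 of 11587 genes were called (2.59%), 224 that fell (1.93%) and 76 that rose (0.656%). Every R6/2 library was lower for 11.7% of all genes at that age and higher for 10.3%. Of the 224, 220 were tested at 8 weeks, 203 (92.3%) were below 0 there and 87 (39.5%, against 5.72% of all genes) had every R6/2 library lower. None had every R6/2 library higher, and 1 passed the test, Egr2. The median was -0.53 at 8 weeks. The 12-week median of -1.66 is no measure of change with age, since the genes were chosen by passing the test at 12 weeks. Without R6/2 replicate 1, 165 of 220 (75.0%) were below 0 at 8 weeks, 89 (40.5%, against 14.1% of all genes) were lower in both remaining R6/2 libraries and 5 (2.27%, against 16.0%) were higher.

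Genes that rose at 12 weeks lay around 0 at 8 weeks. Of 76, 72 were tested at 8 weeks: 31 were above 0, 4 had every R6/2 library higher (5.56%, against 6.19% of all genes) and the median was -0.07. Their 12-week median of 1.76 was likewise set by the choice of genes. With replicate 1 of both genotypes left out, 54 of 69 were below 0 at 8 weeks, 43 (62.3%, against 21.2% of all genes) were lower in both R6/2 libraries and 11 fell. The thalamus and hypothalamus list had a median of -1.40 at 8 weeks and of 2.05 at 12 weeks, where 5 members rose. Its part in the values of the 12-week risers was not tested.

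**Figure D4:**
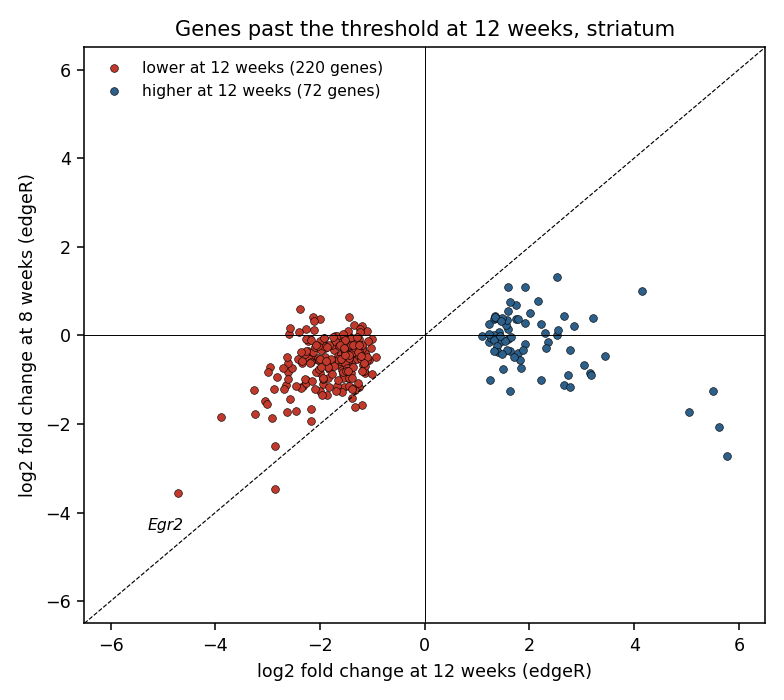
Log2 fold change of R6/2 against wild type in striatum at 12 weeks (x axis) and at 8 weeks (y axis) for the genes called at 12 weeks and tested at both ages; each point is 1 gene, chosen by its 12-week test, and the dashed line marks equal values. Of the 220 genes that fell at 12 weeks, 203 lie below 0 at 8 weeks, while the 72 that rose scatter around 0.

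The difference between ages was tested itself, and 0 of 11429 genes passed the genotype by age interaction by edgeR (0.0%; 1258 at an unadjusted p under 0.05; 17 higher and 3 lower by DESeq2). Without R6/2 replicate 1 of the 8-week group, 15 passed. The genes of smallest p included Vwc2l, a secreted signalling modulator, at -0.66 (SE 0.44) at 8 weeks and 3.05 at 12 weeks, Dgkk, a diacylglycerol kinase, at -1.73 (SE 0.80) and 5.05, and Steap2, a metalloreductase, at -0.75 (SE 0.23) and 1.85. Each had an interaction adjusted p of 0.418. For Egr2 the log2 fold change was -4.72 at 12 weeks (edgeR adjusted p = 0.00969), where R6/2 libraries were at 0.294, 0.798 and 0.166 and wild type at 8.39, 18.7 and 5.40, scaled within the 12-week libraries. Its interaction did not pass (-1.16, SE 0.75, adjusted p = 0.518). Scn4b stood at -3.90 and Penk at -2.64 at 12 weeks.

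In cortex at 8 weeks, 0 of 11663 genes were called by edgeR (0.0%; 2953 at an unadjusted p under 0.05; 351 higher and 688 lower by DESeq2), and 1579 were higher and 1523 lower by edgeR without wild type cortex replicate 3. Egr2 was lower in each R6/2 cortex library too, at 0.425, 1.63 and 1.22 against 4.43, 4.73 and 14.5 (-2.86, edgeR). The tissue by genotype interaction passed 0 of 11514 genes by edgeR (0.0%; 432 at an unadjusted p under 0.05; 0 by DESeq2). As a description across genes, which are not independent, the 8-week striatal log2 fold changes correlated with those of 8-week cortex at 0.55 (10925 genes) and with those of 12-week striatum at 0.003 (11013 genes). Striatal and cortical libraries at 8 weeks share 4 numbers in their titles, and GC content and neighbouring tissue differ between libraries, as given above.

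Genes defined by region in other libraries were followed as well. Genes at least 4-fold higher in wild-type striatum than in wild-type cortex at 12 weeks, with an edgeR adjusted p under 0.05, numbered 187. At 8 weeks 167 of them were tested. Of these, 149 (89.2%) were below 0 and 62 (37.1%, against 5.72% of all genes) had every R6/2 library lower, with a median of -0.68. Of 141 tested genes enriched in cortex by the same rule, 68 were below 0 and 4 (2.84%) had every R6/2 library lower, with a median of 0.05. These shares depended on replicate 1. Without R6/2 replicate 1, 92 of 141 cortex-enriched genes were below 0 and 37 (26.2%, all genes 14.1%) were lower in both remaining R6/2 libraries, with a median of -0.38, and without wild type replicate 1 these were 60 of 139, 14 (10.1%, all genes 10.9%) and 0.08. Without both, 78 of 166 striatum-enriched genes (47.0%) and 60 of 130 cortex-enriched genes (46.2%) were lower in both R6/2 libraries, against 21.2% of all genes, and the medians were -0.29 and -0.42. A difference between the striatum-enriched and cortex-enriched lists was not tested.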

How the data were processed

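Polyadenylated striatal RNA of 3 R6/2 and 3 wild-type libraries was sequenced strand-specifically in read pairs, per the labels' protocols. The authors deposited a read count and an RPKM value per gene and library; Bowtie, DESeq and mm9 are named per the submitters' processing notes, without versions. Neither the counting program nor its strand setting is stated there, so values of paralogs and overlapping genes are uncertain. Deposited RPKM divided counts by a library total larger than the counts in genes. RefSeq gave symbols for 18594 of 18669 gene IDs.

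The main test was edgeR 4.0.16 (R 4.3.3) with TMM scaling and its two-sided quasi-likelihood F test on the counts. It used genes with mean RPKM of at least 0.5, with Benjamini-Hochberg adjustment over all tested genes and a threshold of 0.05. The fit was first run on simulated counts. These had no GC trend and no neighbouring tissue, so that run does not cover such differences. Each SE is the size of the log2 difference divided by the root of its F statistic. Alternatives used DESeq2 1.42.0, limma 3.58.1, GC and length offsets (splines with 5 degrees of freedom) and left-out libraries. Counts carry no molecular identifiers, so depth limits cover counting error only. The comparison, its 43 lists (658 entries, 634 matched; the other 24 are not analysed here) and the rule for named genes were chosen with earlier results of these data known. The rule named the 12 genes of smallest p, up to 3 members of smallest p per list without a call, the 8 of smallest p per interaction and fixed striatal genes. Markers were fixed as a further list.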

Additional observations from a re-analysis of the deposited data

How the results depend on the processing

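The number of genes called between genotypes in striatum at 8 weeks was 1 under the other scalings, expression minimums, limma fits and the GC and length correction, and 0 to 1 when any library was left out. DESeq2 called 33, limma's voom with sample quality weights 235 (34 higher, 201 lower) and edgeR without replicate 1 of both genotypes 79; the last 2 were chosen after seeing the data. DESeq2 and voom shared 32 genes. At 12 weeks the 300 calls became 88 (36 higher, 52 lower) with the authors' library total, 765 with DESeq2, 10 and 5 with limma on log2(RPKM + 0.5) and log2(RPKM + 0.1), 715 (114 higher, 601 lower) after the GC and length correction and 9 to 323 with a library left out (9 without R6/2 replicate 2, 37 without R6/2 replicate 1, 71 without wild type replicate 3), so the lists taken from it depend on these choices. In cortex at 8 weeks the 0 calls became 1039 with DESeq2 and 0 to 3102 with a library left out. The age interaction's 0 calls became 20 with DESeq2 and 0 to 15 with a library left out. The cause was not tested.

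Of 73 genes followed, edgeR called Egr2 alone, 18 others passed with DESeq2, 30 with voom and 12 without replicate 1 of both genotypes, and signs turned for 6. Drd2 ran from -0.84 to 0.0191 with a library left out. Pdyn was -0.21 and -0.23 with limma, -0.18 after the GC correction, -0.0172 with voom and -0.35 to 0.50 with a library left out. Tac1 was 0.56 with voom, 0.45 after the GC correction without wild type replicate 1, 0.65 without replicate 1 of both genotypes and -0.68 to 0.40 with a library left out. Bdnf was 0.51 after the GC correction without wild type replicate 1 and -2.40 to 0.60 with a library left out, and Gfap was -0.0206 after the GC correction. Egr3 was -0.17 after the GC correction, -0.25 with voom, -0.42 after the GC correction without wild type replicate 1, -0.0699 without replicate 1 of both genotypes and -0.36 to 0.33 with a library left out. The leave-one-out fits had 2 libraries in a group. List medians moved with the GC and length correction too: from -0.65 to -0.92 for shared projection neuron genes and from -0.56 to -0.72 for immediate early genes. Interferon genes moved from 0.75 to 0.70, methyltransferase genes from 0.24 to 0.05 and all genes from -0.01 to -0.10.

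No paired analysis was possible for the genotype comparison because R6/2 and wild-type titles share no number. Cortical and striatal titles share 4 numbers, whose deviations correlated at -0.05, 0.11, 0.39 and 0.53, each best with its own number in 2 of 4, so the numbers were not taken as pairs. With the replicate block the tissue interaction passed 0 genes (356 at an unadjusted p under 0.05).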
